A study of Mus musculus with 28 samples.

Results

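The 38 genes described here encode proteins that bend, coat and cut the plasma membrane: the clathrin coat and its AP-2 adaptor, the scaffolds that gather them, the BAR and F-BAR proteins that sense or make membrane curvature, the EHD ATPases, and the caveolins and cavins of caveolae. They are membrane-remodelling partners of BIN1 and of dynamin 2, and were chosen by symbol for that role, with earlier results of these data known. Each symbol was matched to 1 Ensembl identifier among the 55416 of the *Dnm2* cohort and the 55359 of the *Bin1* cohort. All 38 passed the filter on low counts in the *Dnm2* cohort and 37 did in the *Bin1* cohort, where *Sh3gl2* did not. RNA of tibialis anterior (TA) muscle was sequenced from 28 C57BL/6N mice of 8 weeks, in 7 groups of 4. In the *Dnm2* cohort, WT mice and *Dnm2* S619L/+ mice, which carry the S619L change on 1 allele of *Dnm2* in all cells, were given placebo or tamoxifen with the diet. In the *Bin1* cohort, WT mice were given placebo, and *Bin1* mck-/- mice were given placebo or tamoxifen. The mck label refers to deletion driven by the muscle creatine kinase promoter, so that *Bin1* is lost from muscle fibers and kept in the other cells of the muscle. No WT mice with tamoxifen belong to the *Bin1* cohort, and the sex of the mice is not given. Each library of the *Dnm2* cohort took 300 ng of RNA, fragmented for 2 min, and each of the *Bin1* cohort 350 ng, fragmented for 8 min, so model and library protocol cannot be told apart. Mice without tamoxifen are called untreated below.

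In clathrin-mediated endocytosis, AP-2 binds cargo and the lipids of the plasma membrane, clathrin assembles a lattice on it, curvature-binding BAR proteins such as endophilins and sorting nexins shape the neck, and dynamin cuts it. Caveolae are small stable pits built from caveolins and cavins and held at their necks by EHD ATPases, and in muscle fibers they are abundant and give rise to T-tubules during development. BIN1 is a BAR protein of the T-tubule that binds dynamin 2, and mutations of either gene cause centronuclear myopathy. Tamoxifen is a drug that binds estrogen receptors.

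Levels are given as CPM, the reads of a gene scaled to a common total of reads on genes by edgeR's TMM method, and changes as log2 fold changes, where ± gives the standard error (SE). After a mean level, ± gives the SD. A gene was called where the Benjamini-Hochberg adjusted p of edgeR's quasi-likelihood test, over all genes tested, was under 0.05. Depth ranged from 15586333 to 109710886 reads on genes in the *Dnm2* cohort and from 24671835 to 35136327 in the *Bin1* cohort, and the 38 genes held 0.264% to 0.382% of these reads. *Bin1* fell from 539.9 ± 15.7 CPM (SD, n = 4) in WT to 56.2 ± 5.10 in *Bin1* mck-/- mice, with a log2 fold change of −3.26 ± 0.13 (edgeR adjusted p = 7.10e-10). A count per gene does not show the S619L change, and *Dnm2* had 63.1 ± 1.45 CPM in WT and 67.6 ± 4.64 in *Dnm2* S619L/+ mice (log2 fold change 0.10 ± 0.07, edgeR adjusted p = 0.344). *Bin1* itself rose in *Dnm2* S619L/+ mice, with a log2 fold change of 0.81 ± 0.15 (edgeR adjusted p = 0.00176). The 10 myofiber markers, among them *Acta1* and *Ckm*, had a summed level of 107125 to 224730.2 CPM over the 28 mice. Bone-cell markers were also present: the summed level of 14 markers of osteoblasts, osteocytes and osteoclasts was 31.6 to 68.7 CPM in untreated mice, 1657, 2447, 559 and 911 in WT tamoxifen mice 1 to 4, 431, 703, 1255 and 71.8 in *Dnm2* S619L/+ tamoxifen mice and 42.4, 476, 28.4 and 25.8 in *Bin1* mck-/- tamoxifen mice. In whole muscle, fewer cells of a type and less RNA per cell cannot be told apart.

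Per length of their exons, the caveolar genes *Cav1* and *Cavin4*, the mitochondrial and endosomal BAR protein gene *Sh3glb1*, the epsin gene *Epn1* and the F-BAR genes *Pacsin3* and *Trip10* stood at the top in untreated WT muscle. In the *Dnm2* cohort *Cav1* had 87.2 CPM per kb, *Cavin4* 82.5, *Sh3glb1* 68.8, *Epn1* 61.1, *Pacsin3* 60.5 and *Trip10* 56.8. The same 6 genes led in the *Bin1* cohort, where *Epn1* had 80.7 CPM per kb and *Cav1* 55.3. The 3 clathrin chains lay close together, at 18.2 CPM per kb for the heavy chain gene *Cltc*, 17.9 for the light chain gene *Clta* and 18.6 for the light chain gene *Cltb*. *Sh3gl2*, an endophilin gene best known from neurons, was lowest at 0.0176 CPM per kb, from 2 to 11 reads per WT mouse.

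**Figure D1:**
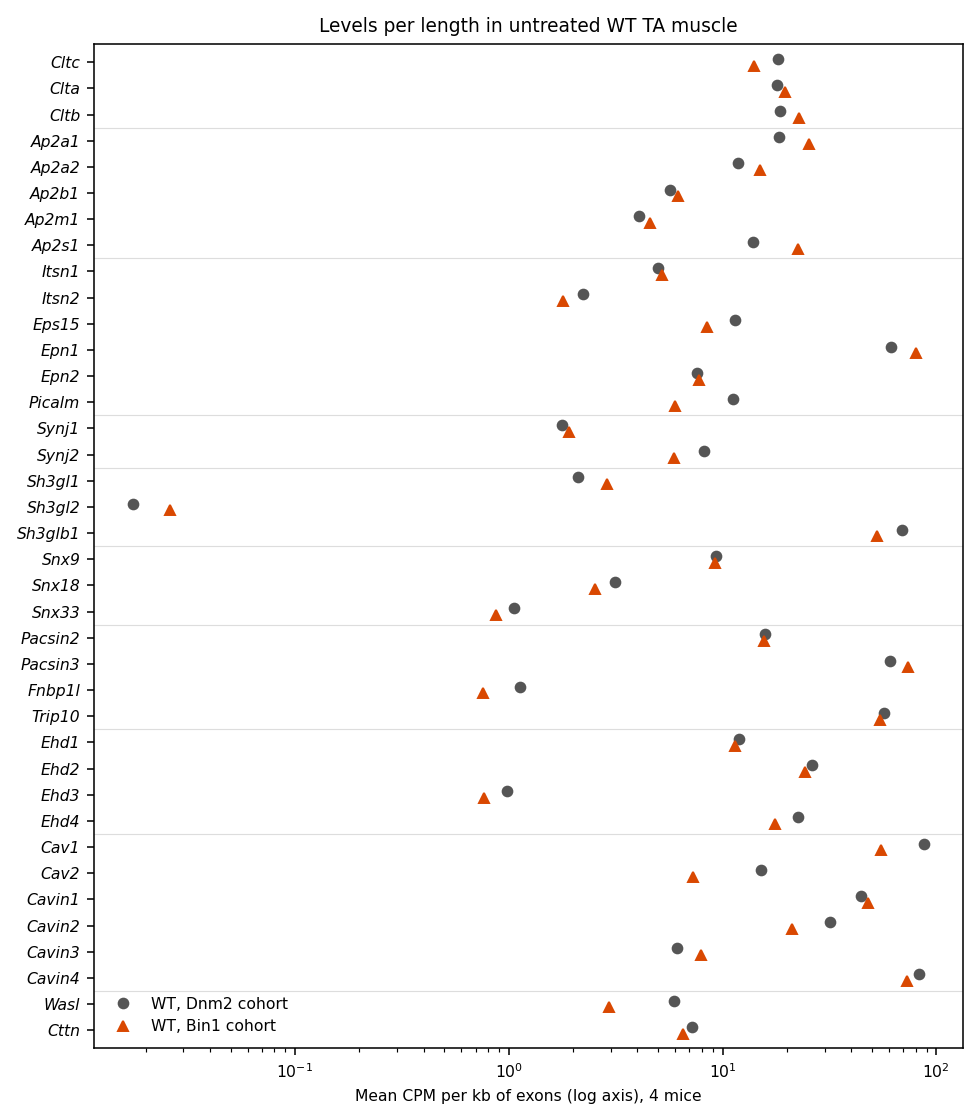
Mean level per length of the 38 genes in untreated WT TA muscle, in CPM per kb of exons on a log axis, with circles for the *Dnm2* cohort and triangles for the *Bin1* cohort (4 mice each). *Cav1*, *Cavin4* and *Epn1* lie at the right end and *Sh3gl2* far to the left of all others, at 0.0176 and 0.0261 CPM per kb.

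Untreated *Dnm2* S619L/+ mice differed from WT mice in 9 of the 38 genes. Higher were *Clta*, the AP-2 subunit gene *Ap2s1*, *Sh3gl2*, *Ehd4* and the cavin genes *Cavin3* and *Cavin4* (6 genes, beside 12.1% of all genes tested), and lower were *Itsn1*, *Fnbp1l* and *Cav1* (3 genes, beside 9.81%). The share of the 38 genes that was called is thus near that of all genes, and their median log2 fold change was −0.01, beside 0.02 over all genes. The *Bin1* mck-/- mice had 3 of 37 genes higher than WT, *Clta*, *Ehd4* and *Cavin4* (all genes 1.99%), and 0 were lower (all genes 0.627%; 10 of the 37 had an unadjusted p under 0.05 in either direction, and DESeq2 called the same 3). These 3 genes are 3 of 3 called in *Bin1* mck-/- mice and 3 of 9 called in *Dnm2* S619L/+ mice, in comparisons that share no mice. Of all genes called higher in *Bin1* mck-/- mice and tested in both cohorts, 75.8% (219 of 289) were called higher in *Dnm2* S619L/+ mice too, or 12.3% of the 1783 called higher there. The count of 3 was 0 without WT mouse 6 or WT mouse 8, and 1 without WT mouse 7 or *Bin1* mck-/- mouse 1, 2 or 4.

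Tamoxifen lowered *Ehd4* in each of the 3 genotypes. In WT mice it changed 10 genes: *Sh3gl1*, *Sh3gl2*, *Snx18*, *Snx33*, *Ehd3* and *Cttn* rose (6 of 38, all genes 15.8%) and *Sh3glb1*, *Trip10*, *Ehd4* and *Cav1* fell (4 of 38, all genes 11.9%). In *Dnm2* S619L/+ mice it raised *Fnbp1l* (1 of 38, all genes 5.22%) and lowered *Ehd4* and *Cavin4* (2 of 38, all genes 3.05%). With tamoxifen in *Bin1* mck-/- mice, *Ehd4* alone was called lower (1 of 37, all genes 1.61%) and 0 genes were called higher (all genes 1.52%; 5 of 37 had an unadjusted p under 0.05, and DESeq2 called *Ehd4* and *Cavin4*, both lower). In WT and in *Dnm2* S619L/+ mice the shares called are near or below those of all genes, and the median log2 fold changes of the 38 genes were −0.03 and 0.05, beside −0.04 and −0.03 over all genes. The count in WT mice was 6 without WT tamoxifen mouse 2. That in *Dnm2* S619L/+ mice was 1 without untreated mouse 2 or 4 or tamoxifen mouse 2 or 3, and 6 without tamoxifen mouse 4, and that in *Bin1* mck-/- mice was 2 without untreated mouse 3 or tamoxifen mouse 2.

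Against untreated WT mice, *Dnm2* S619L/+ tamoxifen mice still differed in 10 genes, 7 higher (all genes 15.8%) and 3 lower (all genes 13.1%), or 6 genes without WT mouse 2. *Bin1* mck-/- tamoxifen mice differed in *Clta* alone (1 higher, all genes 0.465%, and 0 lower, all genes 0.384%; 9 of 37 had an unadjusted p under 0.05, and DESeq2 called 1). With tamoxifen in each group, 0 of the 38 genes passed the test between *Dnm2* S619L/+ and WT mice (all genes 2.18% higher and 0.518% lower by edgeR). Here 8 genes had an unadjusted p under 0.05, and DESeq2 called *Ap2s1* (log2 fold change 0.53, DESeq2 adjusted p = 0.0183).

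The effects of genotype and drug were also compared with each other. A difference in the effect of tamoxifen between *Dnm2* S619L/+ and WT mice passed edgeR's test of the interaction in 0 of 38 genes (all genes 0.0324% higher and 0.227% lower), 4 had an unadjusted p under 0.05 and DESeq2 called 0. Fitted over both cohorts, a difference of the disease effect between the models passed the edgeR test in 0 genes (all genes 0.143% and 0.168%; 4 at an unadjusted p under 0.05, DESeq2 0), and that of the tamoxifen effect in diseased mice in 0 genes (all genes 1.05% and 0.655%; 6 at an unadjusted p under 0.05, DESeq2 0). Calls made in one model or genotype and missed in another are therefore not shown to differ. The interaction count was 2 without untreated *Dnm2* S619L/+ mouse 3 (*Sh3gl2* and *Cav1*), and the last count was 4 without *Bin1* mck-/- tamoxifen mouse 2 (*Ap2m1*, *Sh3gl1*, *Snx18* and *Cttn*) and 2 without *Dnm2* S619L/+ tamoxifen mouse 4.

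**Figure D2:**
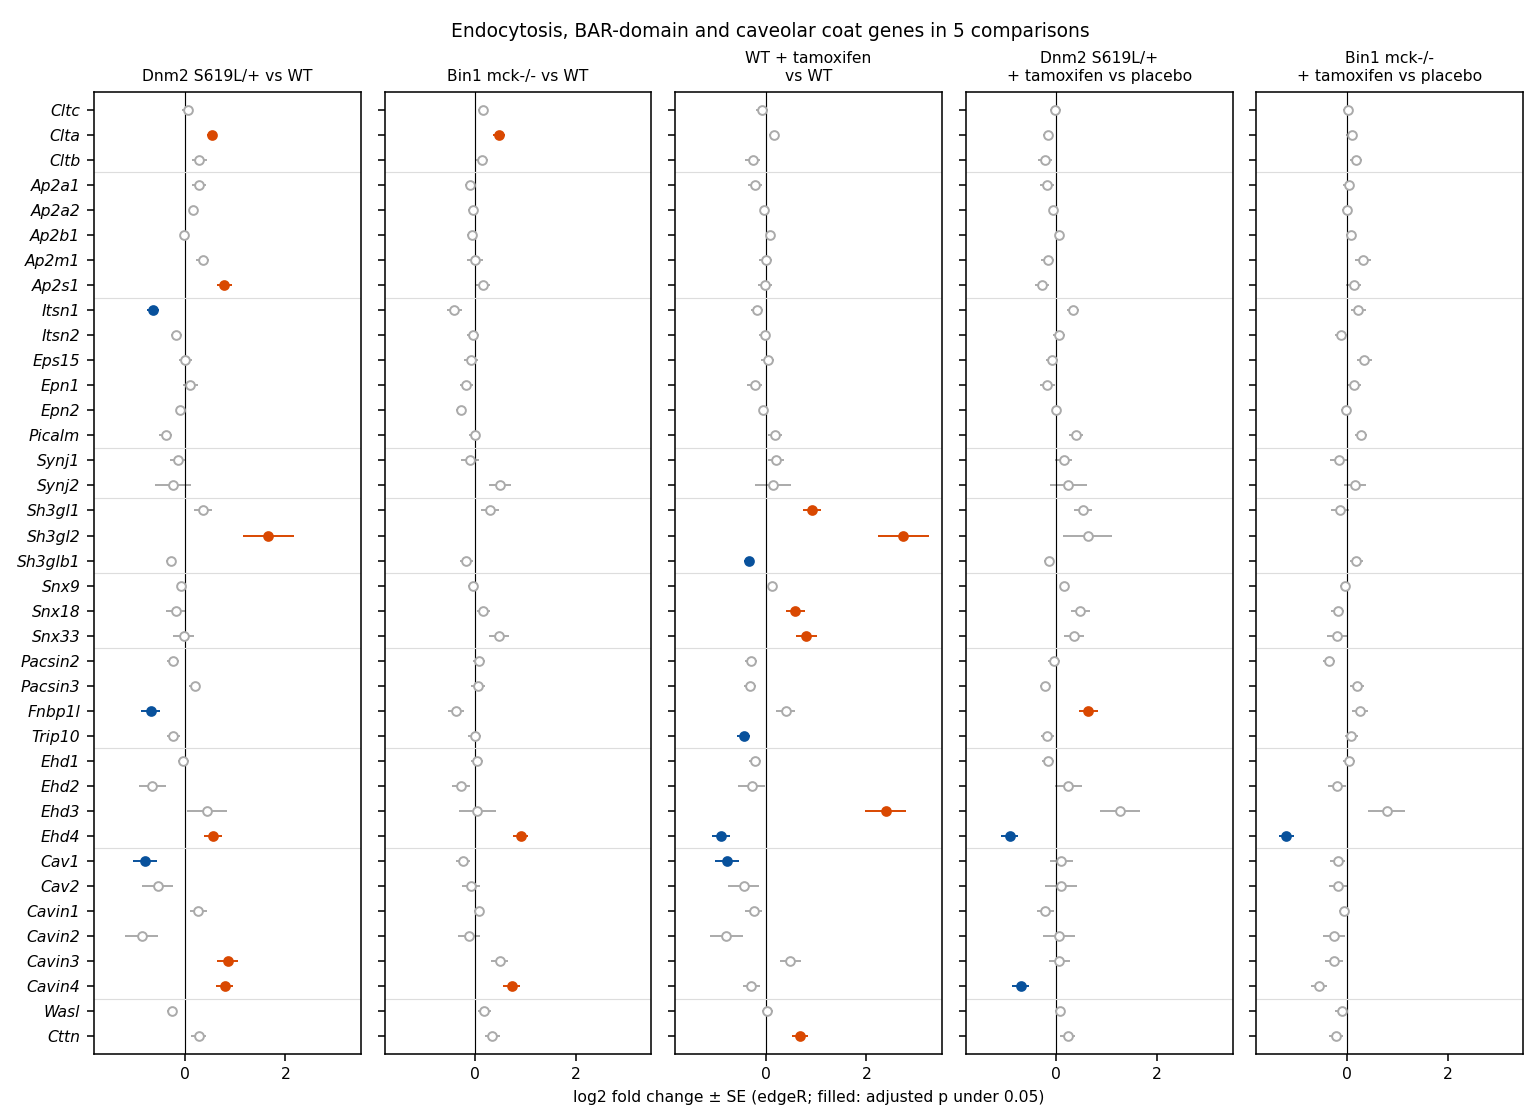
Log2 fold change with its SE (edgeR) of the 38 genes in the 2 disease and 3 tamoxifen comparisons, with genes ordered by role. Filled points passed the adjusted p of 0.05 and open points did not. *Ehd4* lies to the right in both disease panels and to the left in all 3 tamoxifen panels.

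Among the clathrin genes, the light chain gene *Clta* (ENSMUSG00000028478) was the only chain called, and it was called higher in both models. It had 33.6, 34.3, 37.9 and 35.2 CPM in WT mice of the *Bin1* cohort, 51.4, 50.8, 40.8 and 52.6 in *Bin1* mck-/- mice and 53.3, 50.3, 42.6 and 62.2 in *Bin1* mck-/- tamoxifen mice. No *Bin1* mck-/- mouse, treated or not, reached down to the WT range. The log2 fold change was 0.47 ± 0.12 (edgeR adjusted p = 0.0488) without and 0.56 ± 0.12 (edgeR adjusted p = 0.0364) with tamoxifen, both against WT. The first call was lost without any 1 WT mouse or without *Bin1* mck-/- mouse 1, 2 or 4 or tamoxifen mouse 1 (adjusted p up to 0.157), and the second without any 1 WT mouse, untreated mouse 1 or 2 or tamoxifen mouse 1, 2 or 4 (up to 0.131). In the *Dnm2* cohort, *Clta* ranged over 29.2 to 34.4 CPM in WT and 41.8 to 51.2 in *Dnm2* S619L/+ mice, a log2 fold change of 0.54 ± 0.10 (edgeR adjusted p = 0.00179) that was kept without any single mouse, and it was still higher than WT under tamoxifen (0.38 ± 0.10, edgeR adjusted p = 0.0112). *Cltc*, the heavy chain, and the light chain gene *Cltb* were called in 0 comparisons, and *Cltc* had log2 fold changes of 0.06 in *Dnm2* S619L/+ and 0.15 in *Bin1* mck-/- mice.

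*Ap2s1* (ENSMUSG00000008036), the small subunit of AP-2, had 20.4, 18.5, 18.4 and 24.2 CPM in WT and 32.0, 44.4, 32.2 and 32.5 in *Dnm2* S619L/+ mice. All *Dnm2* S619L/+ mice lay above all WT mice, and mouse 2 stood above the other 3. The log2 fold change was 0.79 ± 0.15 (edgeR adjusted p = 0.00170), and against WT it was 0.51 ± 0.15 (edgeR adjusted p = 0.0172) with tamoxifen, a call that was lost without WT mouse 2 (adjusted p = 0.0528). Its log2 fold change in *Bin1* mck-/- mice was 0.15 ± 0.15 (edgeR adjusted p = 0.624), and the difference between the models was 0.63 ± 0.21 (edgeR adjusted p = 0.178) on the log2 scale. The other 4 subunits of AP-2 were called in 0 comparisons.

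Of the scaffolds that gather clathrin and AP-2, *Itsn1*, which encodes intersectin 1, a scaffold that binds dynamin, was called once. It ranged over 112 to 119.6 CPM in WT and 62.5 to 90.4 in *Dnm2* S619L/+ mice, without overlap, and fell, with a log2 fold change of −0.64 ± 0.12 (edgeR adjusted p = 0.00179) that was kept without any single mouse. With tamoxifen the range was 83.7 to 102 CPM. *Itsn1* in *Bin1* mck-/- mice ranged over 80.8 to 101 CPM against 108 to 149 in WT, again without overlap, and its log2 fold change of −0.42 ± 0.15 (edgeR adjusted p = 0.132) did not pass the test, while it passed when the untreated groups were fitted alone (adjusted p = 0.0310). *Itsn2*, *Eps15*, *Epn1*, *Epn2* and *Picalm*, adaptors and cargo-binding proteins of the pit, and the lipid phosphatase genes *Synj1* and *Synj2*, which help to shed the coat, were called in 0 comparisons. *Picalm*, a clathrin assembly protein gene, had log2 fold changes of −0.38 in *Dnm2* S619L/+ mice and 0.39 under tamoxifen in them (edgeR adjusted p = 0.0581 and 0.0910), and DESeq2 called the first (DESeq2 adjusted p = 0.0366).

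The endophilin and sorting nexin genes, whose BAR proteins act at the neck of the pit, differed mainly in mice with tamoxifen. *Sh3gl1*, which encodes the widely expressed endophilin A2, had 12.2, 10.4, 7.51 and 12.0 CPM in WT and 18.1, 21.8, 18.2 and 22.8 in WT tamoxifen mice, without overlap (log2 fold change 0.92 ± 0.18, edgeR adjusted p = 0.00189). In *Dnm2* S619L/+ tamoxifen mice it had 20.7, 20.8, 25.5 and 13.3 CPM. The log2 fold change against untreated WT mice, which holds genotype and drug together, was 0.91 ± 0.18 (edgeR adjusted p = 0.00206). Mouse 4 of that group, whose summed bone-cell markers were at 71.8 CPM, lay near the untreated *Dnm2* S619L/+ mice (12.1 to 15.6 CPM), and the other 3 mice lay above them. *Sh3gl1* in *Bin1* mck-/- tamoxifen mice was at 17.5, 21.9, 12.2 and 12.8 CPM, highest in mouse 2, the mouse of that group with high bone-cell markers. Under tamoxifen in *Dnm2* S619L/+ mice, 0 of the 3 endophilin genes were called against untreated ones, with log2 fold changes of −0.15 to 0.62. Between treated and untreated *Bin1* mck-/- mice no rise was called either. *Sh3gl1* and *Sh3glb1*, the 2 endophilin genes tested there, had log2 fold changes within −0.13 to 0.19.

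*Sh3gl2* rests on few reads. It had 0.112, 0.0566, 0.158 and 0.134 CPM in WT mice, 1.27, 1.26, 1.04 and 0.656 in WT tamoxifen mice, 0.383, 0.816, 0.0453 and 0.673 in *Dnm2* S619L/+ mice and 0.951, 1.24, 0.562 and 0.309 in *Dnm2* S619L/+ tamoxifen mice, from 1 to 63 reads per mouse. Both tamoxifen groups lay above WT, and untreated *Dnm2* S619L/+ mouse 3 lay below the lowest WT mouse. The log2 fold changes against WT were 2.73 ± 0.50 (edgeR adjusted p = 0.00133), 2.28 ± 0.50 (edgeR adjusted p = 0.00392) and, for untreated *Dnm2* S619L/+ mice, 1.66 ± 0.50 (edgeR adjusted p = 0.0270). The last call was lost without WT mouse 1 or 2 or *Dnm2* S619L/+ mouse 2 or 4 (adjusted p up to 0.0848). In the *Bin1* cohort, where *Sh3gl2* was not tested, it ranged over 0 to 0.516 CPM.

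*Snx33*, which encodes a sorting nexin with an SH3, a PX and a BAR domain, rose in WT tamoxifen mice from 4.96, 4.56, 5.06 and 4.87 to 8.93, 11.5, 6.26 and 7.35 CPM, without overlap (log2 fold change 0.81 ± 0.20, edgeR adjusted p = 0.00844). Its relative *Snx18* rose too, and ranged over 15.3 to 17.8 CPM in WT and 18.2 to 30.0 in WT tamoxifen mice (log2 fold change 0.59 ± 0.19, edgeR adjusted p = 0.0338), a call that was lost without any 1 WT mouse or without WT tamoxifen mouse 1 or 2 (adjusted p up to 0.115). *Snx9* was called in 0 comparisons. *Cttn*, which encodes the actin-binding protein cortactin, rose as well, and ranged over 28.2 to 31.7 CPM in WT and 37.0 to 61.8 in WT tamoxifen mice (log2 fold change 0.68 ± 0.15, edgeR adjusted p = 0.00421). In *Dnm2* S619L/+ tamoxifen mice it ranged over 32.6 to 50.1 CPM, lowest in mouse 4, and was higher than in WT (log2 fold change 0.51 ± 0.15, edgeR adjusted p = 0.0198), a call that was lost without WT mouse 2 or *Dnm2* S619L/+ tamoxifen mouse 2 or 3 (adjusted p up to 0.0717). *Wasl*, which encodes the actin nucleation promoter N-WASP, was called in 0 comparisons. Between treated and untreated *Dnm2* S619L/+ mice neither *Cttn* nor *Wasl* was called, with log2 fold changes of 0.07 to 0.23. In the other direction *Sh3glb1* fell, with 460.3 to 568 CPM in WT and 368 to 433 in WT tamoxifen mice (log2 fold change −0.34 ± 0.10, edgeR adjusted p = 0.0177), a call that was lost without WT mouse 2 or 3 or WT tamoxifen mouse 2 (adjusted p up to 0.0782).

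*Ehd3*, which encodes an ATPase of endosomal recycling, had the largest log2 fold change among the calls other than *Sh3gl2*. Its level was 5.66, 6.93, 7.83 and 5.45 CPM in WT mice and 35.8, 48.6, 23.8 and 26.2 in WT tamoxifen mice, a log2 fold change of 2.39 ± 0.41 (edgeR adjusted p = 9.37e-04). It was 8.90, 7.58, 7.33 and 11.1 CPM in *Dnm2* S619L/+ mice and 16.4, 31.5, 31.1 and 5.46 with tamoxifen. The first 3 treated mice lay above all untreated mice and mouse 4 lay at the WT level, and the change against untreated *Dnm2* S619L/+ mice did not pass the test (log2 fold change 1.26 ± 0.40, edgeR adjusted p = 0.0617), while without mouse 4 it did (log2 fold change 1.58, adjusted p = 8.27e-04). Against WT it was 1.71 ± 0.40 (edgeR adjusted p = 0.00607) with all 4 mice. With mouse 4 as the sole treated mouse, a comparison added after the values were seen, it was −0.20. That value only restates the level of this mouse and tests nothing further. *Ehd3* in *Bin1* mck-/- mice had 4.11, 5.28, 4.43 and 6.90 CPM, and with tamoxifen 5.62, 18.7, 4.58 and 6.87, with mouse 2 alone above the others.

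The mice with high *Ehd3* were those with high bone-cell markers. The 8 mice whose 14 markers summed to more than 400 CPM had 23.8 to 48.6 CPM (WT tamoxifen), 16.4, 31.5 and 31.1 (*Dnm2* S619L/+ tamoxifen mice 1 to 3) and 18.7 (*Bin1* mck-/- tamoxifen mouse 2), and the other 20 mice had 4.11 to 11.1. In WT tamoxifen mice 6 of 7 tested markers of osteoblasts and osteocytes, 5 of 6 of osteoclasts, 6 of 8 of fibroblasts and 7 of 8 of macrophages and leukocytes were called higher. The part of such cells in the changes of *Ehd3*, *Sh3gl1*, *Sh3gl2*, *Snx18*, *Snx33* and *Cttn* was not tested.

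**Figure D3:**
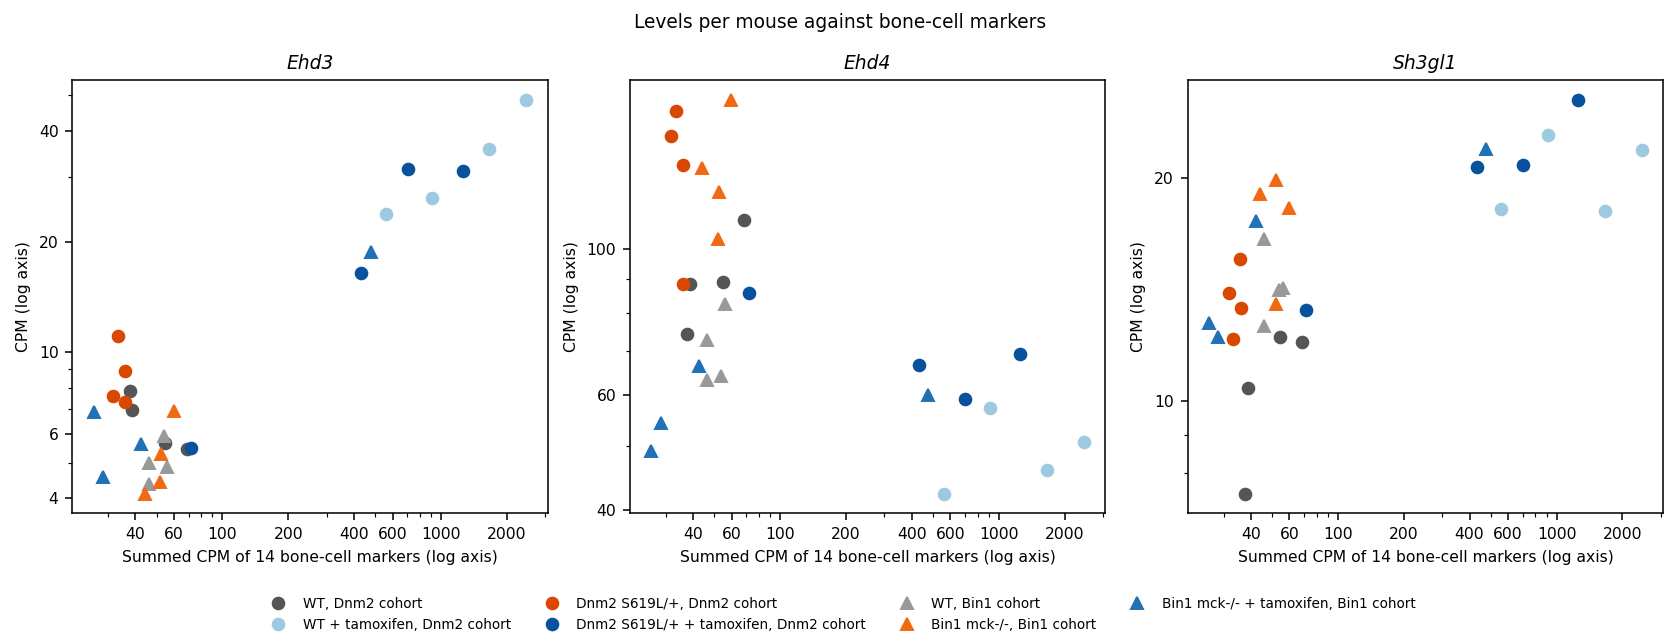
Level of *Ehd3*, *Ehd4* and *Sh3gl1* in each of the 28 mice (CPM, log axis) against the summed level of 14 bone-cell markers (CPM, log axis), with colors for groups, circles for the *Dnm2* cohort and triangles for the *Bin1* cohort. *Ehd3* rises with the markers. *Ehd4* is at 49.3 to 66.3 CPM in *Bin1* mck-/- tamoxifen mice, with high and with low markers. Among *Dnm2* S619L/+ tamoxifen mice it is highest in mouse 4, with markers at 71.8 CPM, and there within the WT range of the cohort.

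*Ehd4* (ENSMUSG00000027293), which encodes an EHD ATPase that acts at caveolar necks and early endosomes, was called in 5 comparisons, higher in both models and lower with tamoxifen in all 3 genotypes. Its level was 82.4, 63.1, 64.1 and 72.6 CPM in WT mice of the *Bin1* cohort, 133, 122, 104 and 169 in *Bin1* mck-/- mice and 66.3, 59.8, 54.2 and 49.3 in *Bin1* mck-/- tamoxifen mice. All untreated *Bin1* mck-/- mice lay above all other mice of the cohort, and the treated mice overlapped WT at the low end of its range. The log2 fold change was 0.91 ± 0.15 (edgeR adjusted p = 0.0110) for the deletion, −1.20 ± 0.15 (edgeR adjusted p = 7.00e-04) for tamoxifen, and −0.30 ± 0.15 (edgeR adjusted p = 0.360) between treated and WT mice. The fall under tamoxifen was kept without any single mouse (adjusted p at most 0.00384), and the rise in the model was lost without WT mouse 6 or 8 (at most 0.0538).

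In the *Dnm2* cohort *Ehd4* was at 89.2, 88.5, 74.2 and 111 CPM in WT mice and 135, 149, 88.5 and 163 in *Dnm2* S619L/+ mice. With tamoxifen it was at 46.0, 50.8, 42.3 and 57.2 CPM in WT mice and 66.7, 59.2, 69.3 and 85.9 in *Dnm2* S619L/+ mice. Each treated group lay below its untreated group without overlap, and untreated *Dnm2* S619L/+ mouse 3 lay within the WT range. The log2 fold change of tamoxifen was −0.89 ± 0.18 (edgeR adjusted p = 0.00207) in WT and −0.93 ± 0.18 (edgeR adjusted p = 0.00678) in *Dnm2* S619L/+ mice, and their difference was −0.04 ± 0.25 (edgeR adjusted p = 0.964) on the log2 scale. Between the models, the disease effect differed by −0.35 ± 0.23 (edgeR adjusted p = 0.533) and the tamoxifen effect by 0.31 ± 0.24 (edgeR adjusted p = 0.437). Both falls were kept without any single mouse, and the second did not pass with the other 2 groups left out of the fit (adjusted p = 0.0736). The rise in *Dnm2* S619L/+ mice, 0.56 ± 0.17 (edgeR adjusted p = 0.0320), was lost without WT mouse 1, 2 or 3 or *Dnm2* S619L/+ mouse 1, 2 or 4 (adjusted p up to 0.103) and with the tamoxifen groups left out of the fit (0.0672). *Ehd4* was also below all untreated *Bin1* mck-/- mice in *Bin1* mck-/- tamoxifen mice 1, 3 and 4. The summed bone-cell markers of these treated mice, 42.4, 28.4 and 25.8 CPM, did not exceed those of untreated mice. *Dnm2* S619L/+ tamoxifen mouse 4, with markers at 71.8 CPM, had the highest *Ehd4* of its group, 85.9 CPM, within the WT range. The part of bone cells in the level of *Ehd4* was not tested. *Ehd1* and *Ehd2*, the other members of the family, were called in 0 comparisons.

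*Cavin4* (ENSMUSG00000028348), the muscle-specific cavin of the caveolar coat, was higher in both models. It had 198, 161, 158 and 160.3 CPM in WT and 281, 316, 237 and 345 in *Dnm2* S619L/+ mice, and 172, 146, 129 and 149 in WT and 244, 252, 184 and 304 in *Bin1* mck-/- mice. In neither cohort did diseased and WT mice overlap. The log2 fold changes were 0.80 ± 0.17 (edgeR adjusted p = 0.00372) and 0.72 ± 0.16 (edgeR adjusted p = 0.0332). The first was kept without any single mouse, and the second was lost without WT mouse 6, 7 or 8 or *Bin1* mck-/- mouse 1, 2 or 4 (adjusted p up to 0.117).

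With tamoxifen *Cavin4* was at 188, 138, 150.2 and 247 CPM in *Dnm2* S619L/+ mice, where mouse 4 overlapped the untreated mice, and the log2 fold change against untreated *Dnm2* S619L/+ mice was −0.71 ± 0.17 (edgeR adjusted p = 0.0185). This call was lost without untreated mouse 2 or 4 or treated mouse 2 or 3 (adjusted p up to 0.0764) and with the other 2 groups left out of the fit (0.112). In *Bin1* mck-/- tamoxifen mice it was at 173, 123, 192 and 178 CPM, and its log2 fold change of −0.56 ± 0.16 (edgeR adjusted p = 0.0699) did not pass the test, although DESeq2 called it (DESeq2 adjusted p = 0.0244). In each cohort mouse 3 of the untreated diseased group had the lowest *Cavin4* and *Ehd4* of its group. The summed level of 8 markers of regenerating fibers was lowest in the same 2 mice, with 135, 159, 84.0 and 107 CPM in *Dnm2* S619L/+ mice 1 to 4 and 119, 113, 66.2 and 132 in *Bin1* mck-/- mice, against 28.2 to 61.6 in WT mice. Of these markers 4 of 8 (*Myog*, *Mymx*, *Chrng* and *Ncam1*) were called higher in *Dnm2* S619L/+ mice and 2 of 7 tested (*Myog* and *Ncam1*) in *Bin1* mck-/- mice. The myosin genes of the list, *Myh3* and *Myh8*, were called in neither model. Their log2 fold changes were 0.54 and 0.03 in *Dnm2* S619L/+ mice and −0.06 and 0.90 in *Bin1* mck-/- mice. Of 8 markers of macrophages and leukocytes 5 were called higher in *Dnm2* S619L/+ and 4 in *Bin1* mck-/- mice. The part of these cells in the changes of *Ehd4*, *Cavin4* and *Clta* was not tested.

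**Figure D4:**
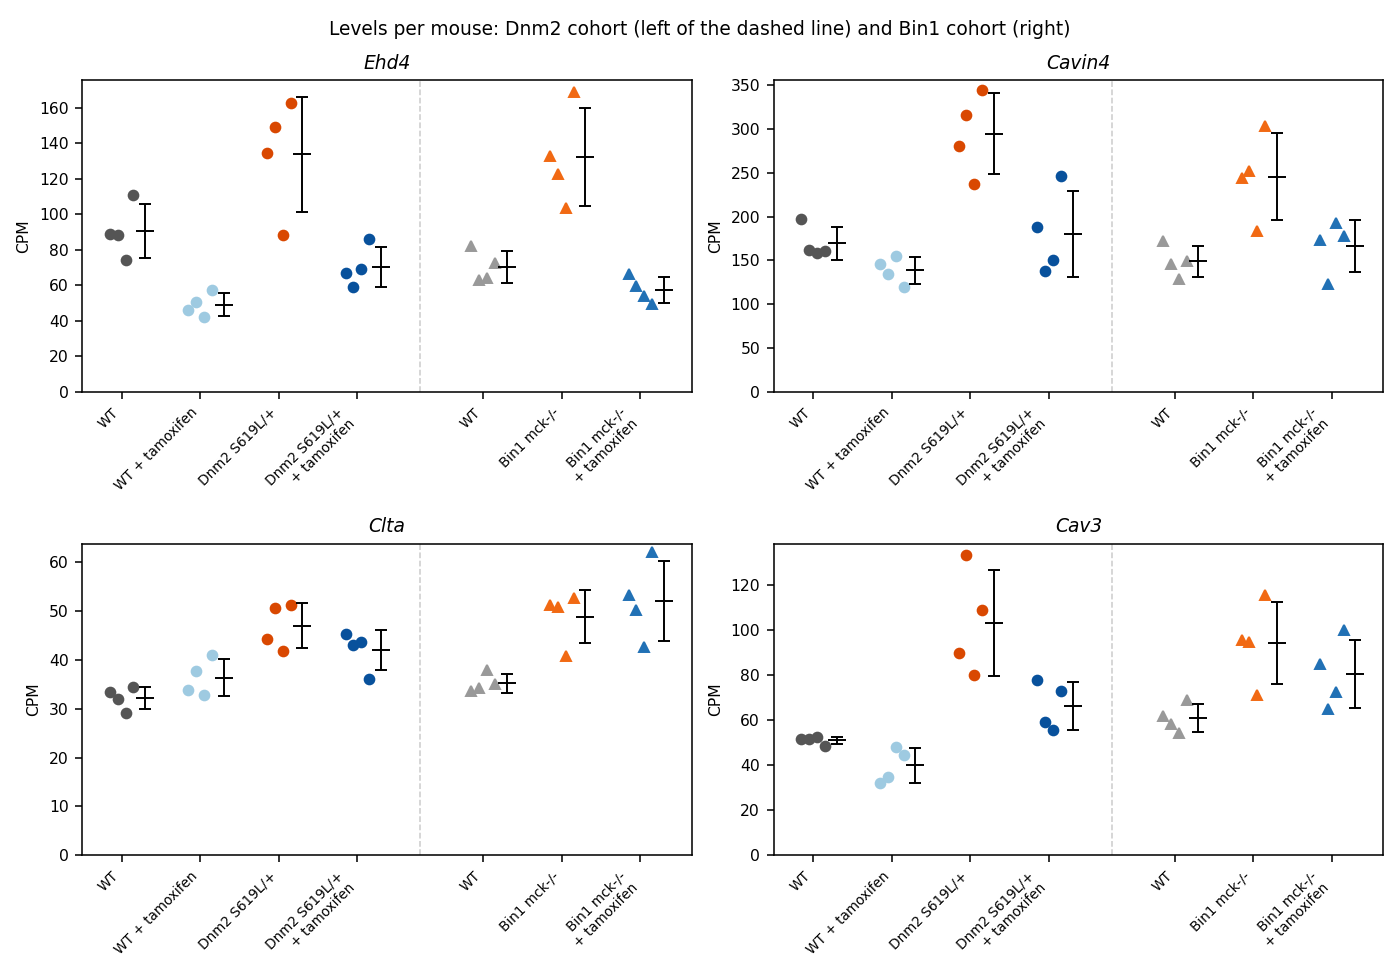
CPM of *Ehd4*, *Cavin4*, *Clta* and *Cav3* in each mouse, by group, with the mean and SD of 4 mice beside the points, the *Dnm2* cohort to the left of the dashed line and the *Bin1* cohort to the right. *Ehd4* lies mostly above WT in the untreated diseased groups, and each tamoxifen group lies below the untreated mice of its genotype. *Clta* stays high in *Bin1* mck-/- tamoxifen mice, at 42.6 to 62.2 CPM.

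The sequences before the start sites of *Ehd4* and *Cavin4* are shown because both genes were called higher in both models. They come from RefSeq on GRCm38.p6, which holds an entry for 34 of the 38 genes (45 entries). The entry of *Ehd4*, on the minus strand at chr2:120154607-120154825, covers bases −250 to −32 before its RefSeq start, up to the start of a transcript in GENCODE M21, and that of *Cavin4*, on the plus strand at chr4:48663264-48663513, covers bases −250 to −1. Each is written from 5′ to 3′ on the strand of the gene, and capitals mark every match on either strand to the CCAAT box, to the TATA box (TATAAA) and to the E-box (CANNTG).
*Ehd4*: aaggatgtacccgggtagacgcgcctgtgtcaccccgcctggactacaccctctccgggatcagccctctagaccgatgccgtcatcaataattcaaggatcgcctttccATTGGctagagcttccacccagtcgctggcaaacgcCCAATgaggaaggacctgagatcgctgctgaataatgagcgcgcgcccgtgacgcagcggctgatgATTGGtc
*Cavin4*: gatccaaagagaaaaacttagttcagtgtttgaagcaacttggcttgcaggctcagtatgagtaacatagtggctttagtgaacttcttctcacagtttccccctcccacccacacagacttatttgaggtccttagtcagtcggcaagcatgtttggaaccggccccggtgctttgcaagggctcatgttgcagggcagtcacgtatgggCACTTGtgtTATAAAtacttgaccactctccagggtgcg
The *Ehd4* stretch held 3 CCAAT matches, 17 CpG pairs and no TATA box or E-box, and 58.4% of its bases were G or C. That of *Cavin4* held a TATA box and, just before it, an E-box, with 5 CpG pairs and 48.8% G or C, and these matches do not overlap. Over all 32851 entries of RefSeq, 33.8% held a CCAAT box, 12.4% a TATA box and 66.2% an E-box in the 250 bases before the start, and among the entries of the 38 genes these shares were 33.3%, 11.1% and 60.0%. The palindromic estrogen response element GGTCANNNTGACC was in 0.0639% of all entries and in 0 of the 45. A match describes these letters only.

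*Cavin3*, a cavin of many cell types, had 11.9, 7.92, 7.43 and 13.6 CPM in WT, 18.4, 21.7, 18.9 and 15.6 in *Dnm2* S619L/+ and 20.3, 22.6, 20.8 and 14.1 in *Dnm2* S619L/+ tamoxifen mice. All mice of the diseased groups lay above all WT mice. The log2 fold change against WT was 0.85 ± 0.21 (edgeR adjusted p = 0.00971) without and 0.91 ± 0.21 (edgeR adjusted p = 0.00493) with tamoxifen, each kept without any single mouse. Its log2 fold change in *Bin1* mck-/- mice was 0.49 ± 0.17 (edgeR adjusted p = 0.134), short of the threshold, with 15.3 to 23.9 CPM against 11.3 to 14.4 in WT and no overlap.

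*Cav1*, which encodes caveolin 1, the main caveolin of endothelial cells and adipocytes, fell in the *Dnm2* cohort. It had 278, 269, 214 and 442 CPM in WT, 159, 152, 272 and 115 in *Dnm2* S619L/+, 169.6, 155, 201 and 182 in WT tamoxifen and 205, 196, 161 and 187 in *Dnm2* S619L/+ tamoxifen mice. WT mouse 4 stood above all others, and *Dnm2* S619L/+ mouse 3 lay within the WT range. The log2 fold changes against WT were −0.78 ± 0.24 (edgeR adjusted p = 0.0282), −0.76 ± 0.24 (edgeR adjusted p = 0.0258) and −0.68 ± 0.24 (edgeR adjusted p = 0.0415), and these comparisons share the WT mice. Without WT mouse 4 none of the 3 passed (adjusted p = 0.0902, 0.0902 and 0.145). The first was also lost without WT mouse 2 or *Dnm2* S619L/+ mouse 1, 2 or 4, the second without WT tamoxifen mouse 1 or 2, and the third without any 1 *Dnm2* S619L/+ tamoxifen mouse, WT mouse 1 or 2 or WT tamoxifen mouse 1 or 4 (adjusted p up to 0.145).

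The summed level of 10 endothelial markers, among them *Pecam1* and *Cdh5*, was 772, 599, 504 and 968 CPM in WT and 358, 292, 651 and 268 in *Dnm2* S619L/+ mice. It was thus highest in the same WT mouse 4 and, among *Dnm2* S619L/+ mice, in the same mouse 3 as *Cav1*. Of the endothelial markers 6 of 10 were called lower in *Dnm2* S619L/+ mice, 0 in WT tamoxifen mice and 1 in *Dnm2* S619L/+ tamoxifen mice. Of 8 markers of smooth muscle cells and pericytes, 4, 1 and 3 were called lower in the same 3 comparisons. *Cav2*, the partner of *Cav1*, had 41.2, 40.8, 33.1 and 87.3 CPM in WT and 29.1, 28.4, 59.5 and 23.1 in *Dnm2* S619L/+ mice. *Cavin2*, an endothelial cavin, had 86.9, 85.2, 65.6 and 149.7 CPM in WT and 47.8, 47.2, 95.3 and 24.3 in *Dnm2* S619L/+ mice. Both genes were highest in the same 2 mice as *Cav1* and the markers, and were called in 0 comparisons by edgeR, while DESeq2 called *Cavin2* lower in all 3 comparisons with WT named above. The part of endothelial cells, or of smooth muscle cells and pericytes, in these values was not tested. *Cavin1*, needed for all caveolae, was called in 0 comparisons and ranged over 115 to 221 CPM in WT and 166 to 234 in *Dnm2* S619L/+ mice.

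**Figure D5:**
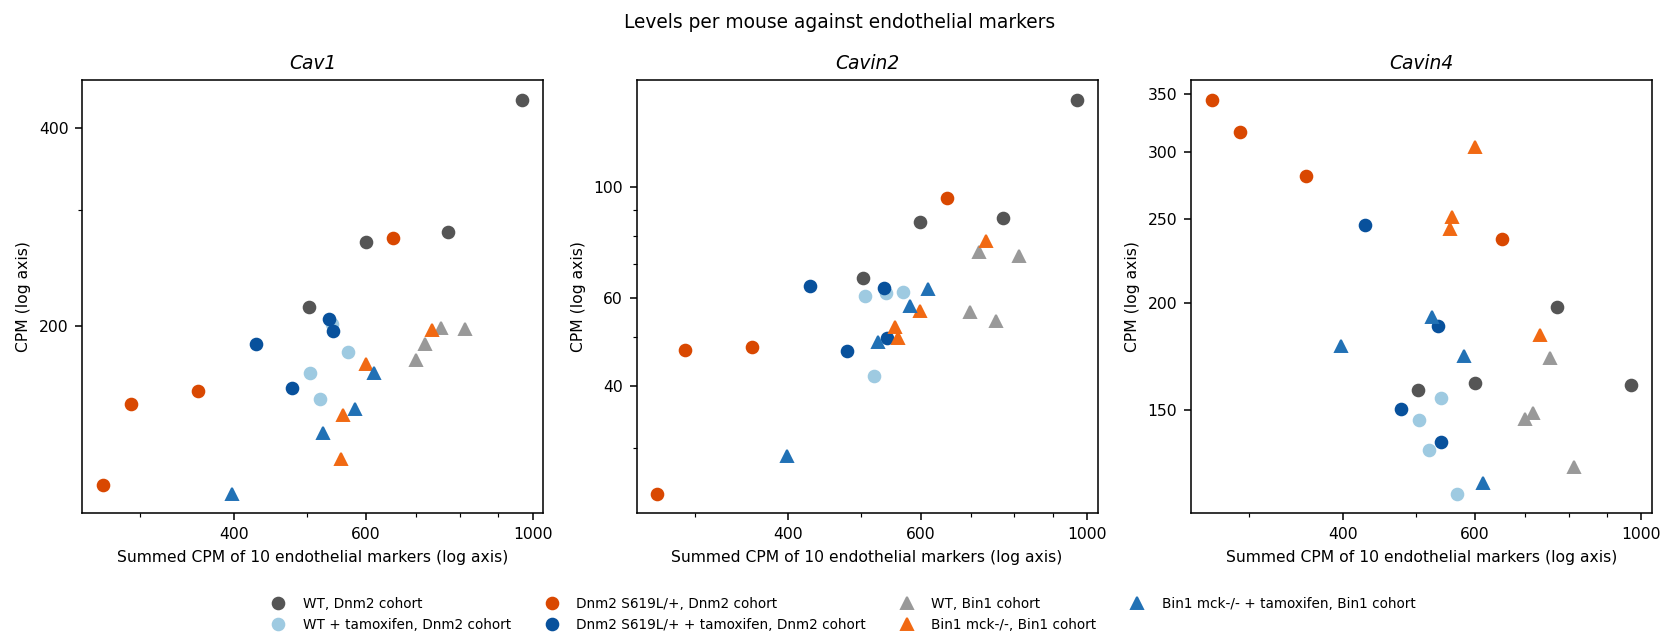
Level of *Cav1*, *Cavin2* and *Cavin4* in each of the 28 mice (CPM, log axis) against the summed level of 10 endothelial markers (CPM, log axis), with colors for groups, circles for the *Dnm2* cohort and triangles for the *Bin1* cohort. WT mouse 4 of the *Dnm2* cohort is at the upper right for *Cav1* and *Cavin2* (968 CPM of markers). *Cavin4* is highest in untreated diseased mice, with markers at 268 to 651 CPM in *Dnm2* S619L/+ and 555 to 734 in *Bin1* mck-/- mice.

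Of the F-BAR genes, *Fnbp1l*, which encodes TOCA-1, a link from curved membrane to N-WASP, ranged over 12.8 to 16.7 CPM in WT and 5.52 to 10.0 in *Dnm2* S619L/+ mice (log2 fold change −0.67 ± 0.19, edgeR adjusted p = 0.0188), a call that was lost without WT mouse 4 (adjusted p = 0.0514). With tamoxifen the 4 *Dnm2* S619L/+ mice had 12.6, 17.1, 14.6 and 10.5 CPM against 9.96, 5.52, 10.0 and 9.50 without. The treated mice lay above the untreated ones, mouse 4 only just, and the log2 fold change was 0.63 ± 0.19 (edgeR adjusted p = 0.0472). Of 16 fits without 1 mouse each, 12 lost this call (edgeR adjusted p up to 0.169). *Trip10*, which encodes CIP4, fell, with 169 to 196 CPM in WT and 116 to 166 in WT tamoxifen mice (log2 fold change −0.44 ± 0.13, edgeR adjusted p = 0.0183), a call that was lost without WT mouse 2 or 3 or WT tamoxifen mouse 1 or 2 (adjusted p up to 0.0608). The 10 myofiber markers summed to 121313 to 142917 CPM in WT tamoxifen mice against 155759 to 183854 in WT mice, without overlap, with a median log2 fold change of −0.41, 1 marker called lower and 7 at an unadjusted p under 0.05. The part of muscle fibers in the falls of *Trip10* and *Sh3glb1* was not tested. *Pacsin2* and *Pacsin3*, syndapins that shape caveolae, were called in 0 comparisons. *Pacsin1*, a relative outside the 38 genes, rose in WT tamoxifen mice from 0.203, 0.0283, 0.0791 and 0.536 to 1.59, 1.95, 1.13 and 1.83 CPM (log2 fold change 2.54 ± 0.53, edgeR adjusted p = 0.00310). The WT level rests on 1 to 24 reads per mouse. *Pacsin1* was also higher than in WT in untreated *Dnm2* S619L/+ mice (1.84 ± 0.53, edgeR adjusted p = 0.0233) and in treated ones (2.00 ± 0.53, edgeR adjusted p = 0.0115). In *Bin1* mck-/- mice its log2 fold change of 1.88 ± 0.62 (edgeR adjusted p = 0.109) did not pass the test.

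The 22 of the 38 genes that were called in 0 comparisons had log2 fold changes of −0.85 (*Cavin2*, *Dnm2* S619L/+ against WT) to 0.50 (*Synj2*, *Bin1* mck-/- against WT) in the 2 disease and 3 tamoxifen comparisons. Of the clathrin coat and AP-2, *Cltc* ranged over 114 to 186 CPM over the 28 mice and *Cltb* over 59.0 to 179, and the AP-2 subunit genes over 49.7 to 122 (*Ap2a1*), 60.5 to 91.3 (*Ap2a2*), 45.4 to 62.5 (*Ap2b1*) and 13.7 to 31.8 (*Ap2m1*). The scaffold genes ranged over 18.7 to 34.4 CPM (*Itsn2*), 52.5 to 96.7 (*Eps15*), 107 to 258 (*Epn1*), 30.4 to 45.9 (*Epn2*) and 79.6 to 217 (*Picalm*), and the synaptojanin genes over 9.45 to 19.9 (*Synj1*) and 37.4 to 135 (*Synj2*). Of these coat, scaffold and synaptojanin genes, the ratio of the highest to the lowest mouse was largest in *Synj2*. The remaining ranges were 28.5 to 38.2 CPM for *Snx9*, 16.5 to 42.4 for *Wasl*, 52.9 to 93.7 for *Pacsin2*, 189 to 492 for *Pacsin3*, 33.1 to 55.1 for *Ehd1*, 53.3 to 204 for *Ehd2*, 13.8 to 87.3 for *Cav2*, 115 to 234 for *Cavin1* and 24.3 to 149.7 for *Cavin2*.

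The rest of the pathway was read from 113 further genes in 6 groups, of which 112 were tested in the *Dnm2* cohort and 108 in the *Bin1* cohort. In *Dnm2* S619L/+ mice 18 were called higher and 10 lower (all genes 12.1% and 9.81%), and in *Bin1* mck-/- mice 4 and 0 (all genes 1.99% and 0.627%). Tamoxifen raised 23 and lowered 6 in WT mice (all genes 15.8% and 11.9%), raised 10 and lowered 3 in *Dnm2* S619L/+ mice (all genes 5.22% and 3.05%), and raised 0 and lowered 4 in *Bin1* mck-/- mice (all genes 1.52% and 1.61%). *Cav3*, the caveolin of muscle fibers and of T-tubules, was called higher in both models, as *Cavin4* was. It had 51.3, 51.5, 52.4 and 48.6 CPM in WT and 89.5, 133, 80.0 and 109 in *Dnm2* S619L/+ mice (log2 fold change 1.01 ± 0.16, edgeR adjusted p = 6.26e-04), and 61.9, 58.2, 54.0 and 68.9 in WT and 95.3, 94.8, 71.2 and 115 in *Bin1* mck-/- mice (0.63 ± 0.15, edgeR adjusted p = 0.0427). No diseased mouse overlapped WT. The first call was kept without any single mouse, and the second was lost without any 1 WT mouse, untreated *Bin1* mck-/- mouse 1, 2 or 4 or tamoxifen mouse 1 (adjusted p up to 0.155). Tamoxifen lowered *Cav3* in *Dnm2* S619L/+ mice to 77.8, 58.9, 55.7 and 72.6 CPM (−0.63 ± 0.16, edgeR adjusted p = 0.0272), a call that was lost without untreated mouse 2 or 4 or treated mouse 2 or 3 (adjusted p up to 0.103) and with the other 2 groups left out of the fit (0.111). *Amph*, which encodes amphiphysin, the closest relative of BIN1, was at 1.57, 1.47, 1.82 and 1.36 CPM in WT and 1.01, 0.672, 0.453 and 0.633 in *Dnm2* S619L/+ mice (log2 fold change −1.07 ± 0.29, edgeR adjusted p = 0.0161). It was at 0.651, 0.901, 0.538 and 0.906 CPM in *Bin1* mck-/- mice against 1.76, 1.67, 1.73 and 1.84 in WT, without overlap, and the log2 fold change of −1.16 ± 0.30 (edgeR adjusted p = 0.0538) did not pass the test.

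Of the 112 pathway genes, the interaction of genotype and tamoxifen passed the test in *Micall2* alone, which encodes a protein that links Rab GTPases of recycling endosomes to actin. It had 3.18, 1.75, 1.50 and 2.66 CPM in WT, 1.33, 1.65, 1.84 and 1.66 in WT tamoxifen, 2.05, 1.58, 2.99 and 1.42 in *Dnm2* S619L/+ and 16.6, 9.17, 8.95 and 9.35 in *Dnm2* S619L/+ tamoxifen mice. All 4 mice with the mutation and tamoxifen lay above the other 12 of the cohort, mouse 4 included. Tamoxifen changed it by a log2 fold change of 2.42 ± 0.28 (edgeR adjusted p = 5.46e-04) in *Dnm2* S619L/+ mice and −0.53 ± 0.28 (edgeR adjusted p = 0.169) in WT mice, and the interaction was 2.95 ± 0.40 (edgeR adjusted p = 0.0115). In *Bin1* mck-/- mice it was at 1.09, 2.03, 2.53 and 2.50 CPM and with tamoxifen at 3.09, 3.46, 2.06 and 1.50, and the tamoxifen effect differed between the models (2.15 ± 0.42, edgeR adjusted p = 0.0184).

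The other pathway genes named here were those with the smallest p in each comparison. *Srgap3*, which encodes an inverse F-BAR protein, was at 1.93, 1.02, 0.712 and 1.88 CPM in WT, 8.86, 7.39, 4.26 and 10.6 in *Dnm2* S619L/+ and 12.8, 14.7, 7.25 and 9.11 in WT tamoxifen mice, higher in both without overlap (log2 fold changes 2.36 ± 0.39, edgeR adjusted p = 9.06e-04 and 2.86 ± 0.40, edgeR adjusted p = 3.05e-04). *Brk1*, a subunit of the WAVE complex that drives actin nucleation, rose in *Dnm2* S619L/+ mice (log2 fold change 0.68 ± 0.10, edgeR adjusted p = 3.30e-04). *Snx7* and *Numbl* rose in WT tamoxifen mice (2.37 ± 0.31, edgeR adjusted p = 2.53e-04 and 1.56 ± 0.27, edgeR adjusted p = 9.44e-04), and both were lowest in mouse 4 among the *Dnm2* S619L/+ tamoxifen mice, as *Ehd3* was. *Appl2*, an early endosomal BAR protein gene, and *Srgap1* rose under tamoxifen in *Dnm2* S619L/+ mice (0.60 ± 0.10, edgeR adjusted p = 0.00312 and 1.20 ± 0.27, edgeR adjusted p = 0.0142). In *Bin1* mck-/- mice *Baiap2* and the lipid phosphatase gene *Inpp4b* rose (1.08 ± 0.20, edgeR adjusted p = 0.0174 and 1.01 ± 0.20, edgeR adjusted p = 0.0246), and under tamoxifen *Gas7*, *Cyfip1* and *Inppl1* fell (−1.21 ± 0.27, edgeR adjusted p = 0.0282, −0.46 ± 0.11, edgeR adjusted p = 0.0370 and −0.49 ± 0.12, edgeR adjusted p = 0.0389).

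Counts of calls depended on the scaling of the libraries. When counts were divided by library size alone, the median log2 fold change over all genes shifted by 0.26 in *Dnm2* S619L/+ mice, 0.27 in WT tamoxifen mice and 0.34 in *Dnm2* S619L/+ tamoxifen mice, all against WT. The split of higher and lower calls among the 38 genes was then 16 and 1 in place of 6 and 3, 13 and 1 in place of 6 and 4, and 20 and 0 in place of 7 and 3. The falls of *Sh3glb1*, *Trip10* and *Cav1* in the treated groups and of *Fnbp1l* and *Cav1* in *Dnm2* S619L/+ mice lost their calls under that scaling, and that of *Itsn1* kept it.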

How the data were processed

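RNA-seq counts of reads per Ensembl gene were deposited in 1 table per cohort. Per the submitters' processing notes and methods, reads were demultiplexed with bcl2fastq 2.20.0.422, trimmed with cutadapt 1.10, cleared of ribosomal reads with Bowtie 1.2.2, aligned to mm39 with STAR 2.5.3 and counted with HTSeq 0.6.1p1. The libraries kept strand, and the annotation release and the strand setting of the counting are not given in the sources used here. Lines of the *Bin1* table that name no gene (22.0% to 30.8% of its reads) were left out of library sizes and tests.

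Groups came from the sample labels. Counts were filtered with filterByExpr, scaled by TMM and tested with edgeR 4.0.16 (quasi-likelihood, robust, R 4.3.3), with all groups of a cohort in 1 fit of 15439 (*Dnm2*) or 14841 (*Bin1*) genes, or of 16036 genes over both cohorts for differences between the models, and p-values were adjusted by Benjamini-Hochberg over all of them at 0.05. SE is the absolute log2 fold change over the square root of F. The prior count was 2. P-values measure the spread between mice. No 2 libraries of a group agreed within counting noise (lowest chi-square per gene 15.7). Depth limits *Sh3gl2* and, among the pathway genes, *Pacsin1* (1 to 24 reads per WT mouse of the *Dnm2* cohort) and *Amph* (10 to 45 reads per untreated *Dnm2* S619L/+ mouse). The counts of the other genes allow no statement on cells or protein.

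The members, the pathway and marker lists and the tests were chosen with earlier results of these data known. Values per mouse are given for up to 5 called members with the largest change in each comparison, and pathway genes were named by smallest p, up to 3 per comparison, beside *Cav3*, *Amph* and *Pacsin1*. Lengths are unions of exons in GENCODE M21, and promoters are RefSeq entries on GRCm38.p6, a build other than that of the counts. No coordinate was carried between builds. Alternatives were DESeq2 1.42.0, RLE or library-size scaling, other filters, the groups compared alone, a replicate block and leaving out each mouse. The scripts were tested on simulated data.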

Additional observations from a re-analysis of the deposited data

Results flagged for a closer look

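In each of the 7 groups, each of the 38 genes was examined for 1 mouse far from the other 3, by the gap to its nearest neighbor over the range of the group. Of 266 groups 20 (7.52%) held such a mouse, and chance alone gives about 1 in 20. The levels below are in CPM, and no explanation was tested for any of them.

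In the caveolar and EHD genes, *Cav2* was highest in WT mouse 4 of the *Dnm2* cohort at 87.3 (other mice 33.1 to 41.2) and in *Dnm2* S619L/+ mouse 3 at 59.5 (23.1 to 29.1), the mice with the most endothelial markers of their groups. *Cavin2* was lowest in a WT tamoxifen mouse at 41.8 (60.6 to 61.8), and *Cavin4* was highest in WT mouse 1 of the *Dnm2* cohort at 198 (158 to 161). *Ehd3* was highest in *Bin1* mck-/- tamoxifen mouse 2 at 18.7 (4.58 to 6.87), the mouse of that group with high bone-cell markers.

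In the clathrin and AP-2 genes, *Clta* was lowest in *Bin1* mck-/- mouse 3 at 40.8 (50.8 to 52.6). In *Bin1* mck-/- tamoxifen mice *Cltc* was lowest at 123 (137 to 139) and *Cltb* highest at 179 (123 to 129). *Ap2b1* was lowest in a WT tamoxifen mouse at 45.4 (55.5 to 56.3), *Ap2m1* highest in a WT mouse of the *Dnm2* cohort at 19.3 (15.7 to 16.2), and *Ap2s1* highest in *Dnm2* S619L/+ mouse 2 at 44.4 (32.0 to 32.5).

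In the remaining genes, *Epn1* was highest in a WT mouse of the *Dnm2* cohort at 189 (164 to 168), and *Epn2* and *Synj2* were highest in WT mice of the *Bin1* cohort at 45.9 (38.6 to 39.6) and 70.1 (40.0 to 43.9). *Snx18* was highest in a *Dnm2* S619L/+ mouse at 19.2 (12.4 to 13.3) and *Wasl* in a *Dnm2* S619L/+ tamoxifen mouse at 37.6 (30.0 to 31.2). *Fnbp1l* was picked out in 4 groups, at 16.7 in WT (12.8 to 13.4), 14.7 in WT tamoxifen (19.4 to 19.8), 5.52 in *Dnm2* S619L/+ mouse 2 (9.50 to 10.0) and 10.3 in *Bin1* mck-/- tamoxifen mice (7.80 to 8.19).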

How the results depend on the processing

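Among the alternatives, the count of the 38 genes called moved by over 1.5 times in these. With scaling by library size alone it was 17 in *Dnm2* S619L/+ mice, 20 in *Dnm2* S619L/+ tamoxifen mice against WT, 1 (*Ap2s1*) between the tamoxifen groups of the *Dnm2* cohort, 3 in *Bin1* mck-/- mice under tamoxifen and 0 in *Bin1* mck-/- tamoxifen mice against WT. When only the groups compared were fitted it was 0 for tamoxifen in *Dnm2* S619L/+ mice, 5 in *Bin1* mck-/- mice (*Itsn1* and *Cavin3* added) and 0 in *Bin1* mck-/- tamoxifen mice against WT. DESeq2 gave 5 for tamoxifen in *Dnm2* S619L/+ mice, 1 between the tamoxifen groups and 2 for tamoxifen in *Bin1* mck-/- mice, where no filter on low counts also gave 2. Why these counts moved was not tested. With mouse 4 as the only *Dnm2* S619L/+ tamoxifen mouse, an alternative added after the values were seen, the log2 fold change of *Ehd3* against WT was −0.20. Mouse 4 was already known to lie at the WT level, so this outcome was fixed in advance.

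Leaving out each mouse in turn gave 6 to 13 calls in *Dnm2* S619L/+ mice, 6 to 12 for tamoxifen in WT mice, 1 to 6 for tamoxifen in *Dnm2* S619L/+ mice, 6 to 12 in *Dnm2* S619L/+ tamoxifen mice against WT, 0 to 3 between the tamoxifen groups, 0 to 2 for the interaction, 0 to 3 in *Bin1* mck-/- mice, 1 to 2 for tamoxifen in them, 0 to 1 in them against WT, and 0 to 4 for the difference of the tamoxifen effect between the models. The difference of the disease effect gave 0 throughout. Over the 37 calls of the 38 genes, 481 of 572 such fits kept the call and 91 lost it. These fits include those without a mouse of a group outside the comparison. Where only mice of the groups compared were left out, and with the calls of *Cav3* added, 233 fits kept the call and 95 lost it. With the other planned settings, 226 of 250 fits kept the call of the 38 genes and 24 lost it.

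A fit with a replicate block, which treats mice of the same number as paired, called 1 gene between the tamoxifen groups (*Ehd4*, log2 fold change 0.52, edgeR adjusted p = 0.0424) in place of 0, 8 in *Dnm2* S619L/+ mice, 10 and 2 for tamoxifen in WT and *Dnm2* S619L/+ mice, and 1 for tamoxifen in *Bin1* mck-/- mice. It lost *Cav1* in both *Dnm2* S619L/+ groups against WT, and *Fnbp1l* and the pathway gene *Cav3* for tamoxifen in *Dnm2* S619L/+ mice. Same-numbered mice correlated in their deviations by −0.325 to 0.335 over 24 pairs of the *Dnm2* cohort and −0.175 to 0.149 over 4 pairs of the *Bin1* cohort. For mice of different numbers the values were −0.423 to 0.359 over 72 pairs and −0.170 to 0.321 over 44 pairs. No pairing by number is seen in these values, and with so few pairs they cannot exclude one.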

Other observations

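Beyond the genes described above, pathway genes called higher in *Dnm2* S619L/+ than in WT mice where both received tamoxifen included *Hip1r*, *Cav3*, *Micall1* and *Micall2*. The log2 fold change of *Hip1r*, which encodes a link between clathrin and actin, was 0.73 ± 0.15 (edgeR adjusted p = 0.0129). *Micall1*, which encodes a partner of EHD proteins at tubular recycling endosomes, had 0.68 ± 0.16 (edgeR adjusted p = 0.0359), and *Micall2* had 2.73 ± 0.29 (edgeR adjusted p = 1.47e-04). In each of these genes the groups did not overlap. *Hip1r* and *Micall1* were chosen for naming after their values were seen.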
